A study of Mus musculus with 22 samples.

Results

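The developmental pluripotency-associated genes Dppa2, Dppa3, Dppa4 and Dppa5a, the stem cell genes Fbxo15, Utf1 and Tdh, and the RNA-binding protein genes Lin28a and Lin28b were followed across the 22 libraries of a mouse CUT&RUN study. They were taken by gene symbol from the table of 24467 transcription start site (TSS) windows, and all 9 were found. In CUT&RUN an antibody tethers a nuclease to chromatin, and the DNA released around the bound protein or histone mark is sequenced. Mouse embryonic stem cells, ESC, were compared with neural progenitor cells, NPC, derived from them. Both were labelled strain C57BL/6, genotype untagged, Tir1, and treatment untreated. The ESC were grown without serum in N2B27 medium with leukemia inhibitory factor and the inhibitors CHIR99021 and PD0325901. To obtain NPC, 10 ng/mL bFGF was given during 72 h, followed by 48 h in 500 nM SAG, which activates Hedgehog signalling. In each cell type 2 libraries were made with each of 5 antibodies, against H3K4me3, H3K27me3, SUZ12, JARID2 and MTF2, and 1 library with IgG, which measures the background. The labels number the paired libraries as replicates without naming separate cultures, so that p-values measure the spread between these libraries, which may be technical.

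H3K4me3 is a histone mark of active and poised promoters, and H3K27me3 is the mark that the Polycomb complex PRC2 places at silenced developmental genes. SUZ12 is a core subunit of PRC2, while MTF2 and JARID2 are accessory subunits of different PRC2 forms. Dppa2 and Dppa4 are DNA-binding partner proteins of pluripotent cells and early embryos, Dppa3 (Stella) is a maternal and germ cell factor that protects DNA methylation patterns, and Dppa5a is a KH-domain RNA-binding protein. Fbxo15 encodes an F-box protein, the substrate-binding subunit of an SCF ubiquitin ligase, and its promoter is a classic reporter of reprogramming. Utf1 is a chromatin-bound factor of pluripotent cells, and Tdh is the mitochondrial threonine dehydrogenase on which mouse ESC depend for glycine and one-carbon units. Lin28a and Lin28b encode RNA-binding proteins that block the maturation of let-7 microRNAs and are known from both pluripotent cells and early neural progenitors.

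Each window spanned 5000 bp (mm10) around 1 annotated start, and none of the 9 windows overlapped another window, so levels of these genes can be set beside each other per window. Dppa4 (chr16:48281235-48286234) and Dppa2 (chr16:48307774-48312773) lie on the plus strand of the same chromosome, with their starts 26539 bp apart. Further windows were those of Dppa3 (chr6:122623924-122628923, plus strand), Dppa5a (chr9:78365700-78370699, minus strand), Utf1 (chr7:139941356-139946355, plus strand), Tdh (chr14:63506593-63511592, minus strand), Lin28a (chr4:134016317-134021316, minus strand) and Lin28b (chr10:45467702-45472701, minus strand). The window of Lin28b is centred inside the RefSeq gene span (45376617 to 45486314 of chromosome 10), on the start of 1 of its transcripts, so that signal at the outermost start of the gene was not analysed here.

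Promoter sequences in the RefSeq table of GRCm38.p6 (mm10) covered Utf1, Lin28a and Lin28b. The 250 bases before the Utf1 start (chr7:139943606-139943855, plus strand) are shown because Utf1 was the gene that stood apart in the Polycomb libraries, and CG dinucleotides, the sequence feature best known at Polycomb-bound promoters, are in capitals.
Utf1: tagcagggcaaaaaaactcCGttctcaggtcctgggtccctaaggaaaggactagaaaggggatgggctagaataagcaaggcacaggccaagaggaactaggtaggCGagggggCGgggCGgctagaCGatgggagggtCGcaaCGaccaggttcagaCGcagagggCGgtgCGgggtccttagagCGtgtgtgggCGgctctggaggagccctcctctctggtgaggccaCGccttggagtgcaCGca
This stretch held 14 CG dinucleotides, more than 70.6% of the 32851 promoters in the table, and 4 matches on both strands to GGGCGG, which 32.7% of promoters hold. The same stretch held 7 CG dinucleotides at Lin28a (more than 53.7% of promoters) and 6 at Lin28b (more than 49.6%). Lin28b had 1 match to CACGTG, found in 6.02% of promoters. ATGCAAAT, the octamer, occurred in none of these 3 promoters and in 1.60% of all.

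Total counts over the windows ran from 298458 to 8425292 per library, and 3 counts, the limit set by a count of 0, corresponded to between 0.356 and 10.1 counts per 1e6 counts of the library (CPM), for counting error only. The NPC H3K27me3 libraries differed from each other in enrichment, since the top 1% of windows held 11.0% of counts in replicate 1 and 19.6% in replicate 2. In the NPC MTF2 libraries this share was 3.05% and 7.02%, below 10.5% and 8.44% in ESC. For SUZ12 it was 10.5% and 9.24% in ESC and 4.94% and 5.05% in NPC. H3K4me3 followed the labels: 3 of 4 ESC marker TSSs (Nanog, Pou5f1, Zfp42; not Esrrb) were lower in NPC, and 5 of 5 NPC marker TSSs (Sox1, Pax6, Nes, Fabp7, Vim) were higher. Neuron markers were higher as well, at 4 of 4 TSSs (Tubb3, Dcx, Elavl4, Map2), with a summed H3K4me3 level of 43.7 and 44.7 CPM in ESC and 142 and 163 CPM in NPC. Primed epiblast markers rose at 3 of 4 TSSs (Fgf5, Dnmt3b, Pou3f1; not Otx2), with sums of 157 and 126 CPM in ESC and 181 and 187 CPM in NPC, while mesoderm and endoderm markers each had 1 of 4 higher and 2 lower. Their part in the changes described here was not tested, and in bulk libraries fewer cells of a type and less mark per cell cannot be told apart.

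The 4 Dppa genes, Fbxo15, Tdh and Utf1 had less H3K4me3 signal in NPC than in ESC, and both Lin28 genes had more. The change was tested with edgeR across 19776 windows with calls made where the Benjamini-Hochberg adjusted p was below 0.05. All 9 genes were called, 7 lower and 2 higher in NPC, where 29.2% of all windows tested were called lower and 26.7% higher. The median log2 change was -3.40 over the 9 genes and -0.02 over all windows. With scaling from background windows the calls over all windows split into 1038 higher and 2574 lower, in place of 5286 and 5778. The 9 genes were called in the same direction under each of the 108 gene and setting pairs tried, with a largest adjusted p of 0.000541.

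Dppa2 had 99.5 and 105 CPM of H3K4me3 in the ESC libraries and 6.74 and 4.39 CPM in the NPC libraries, a log2 change of -4.34 ± 0.14 (SE). For its partner gene Dppa4 the levels were 58.1 and 56.1 CPM in ESC and 4.29 and 6.05 CPM in NPC, a change of -3.38 ± 0.16. Both neighbours lay low in NPC, although Dppa4 had the lower level of the pair in both ESC libraries. Dppa3 fell from 106 and 110 CPM to 7.05 and 11.6 CPM, a log2 change of -3.40 ± 0.12. At Dppa5a, 99.3 and 107 CPM in ESC stood against 5.82 and 6.05 CPM in NPC, a change of -4.10 ± 0.13. In none of the 4 Dppa genes did an NPC library come near an ESC library, and the adjusted p was at most 1.91e-96.

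Fbxo15 (window chr18:84932525-84937524, plus strand) had the highest H3K4me3 of the 9 genes in ESC, at 221 and 216 CPM, above 99.6% and 99.5% of all windows of those libraries. In NPC it was at 14.4 and 9.26 CPM, a log2 change of -4.36 ± 0.11 (20.5-fold lower, adjusted p = 2.64e-309), which ranked 14 from the bottom among all windows tested. The metabolic gene Tdh went from 108 and 107 CPM to 6.74 and 4.98 CPM, a log2 change of -4.30 ± 0.13, rank 22 from the bottom. Utf1 fell least of the 7 genes, from 70.7 and 64.3 CPM to 21.8 and 18.5 CPM, a log2 change of -1.82 ± 0.11 (3.54-fold lower). Its 95% interval, -2.04 to -1.60, did not reach that of any other of the 7, of which the nearest was that of Dppa4 (-3.69 to -3.06). The NPC libraries of Utf1 lay above those of the other 6 genes that fell, which ranged from 4.29 to 14.4 CPM. Against IgG, however, H3K4me3 at Utf1 in NPC was at background (log2 fold 0.07 ± 0.55), so a kept mark was not shown. In ESC, H3K4me3 at Utf1 was not called above IgG either (1.01 ± 0.57, adjusted p = 0.103).

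Lin28a, low in ESC at 25.2 and 28.7 CPM, reached 178 and 204 CPM in NPC, a log2 change of 2.85 ± 0.10 (7.19-fold, adjusted p = 4.23e-175). It ranked 41 from the top among all windows, and its NPC level was above 99.1% and 99.6% of windows. Lin28b rose from 20.4 and 17.9 CPM to 103 and 122 CPM, a log2 change of 2.54 ± 0.11 (5.83-fold), rank 74. The ESC and NPC libraries did not overlap at any of the 9 genes. Without any model, 37.6% of windows were lower in both NPC libraries than in both ESC libraries, and 37.5% were higher in both.

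**Figure D1:**
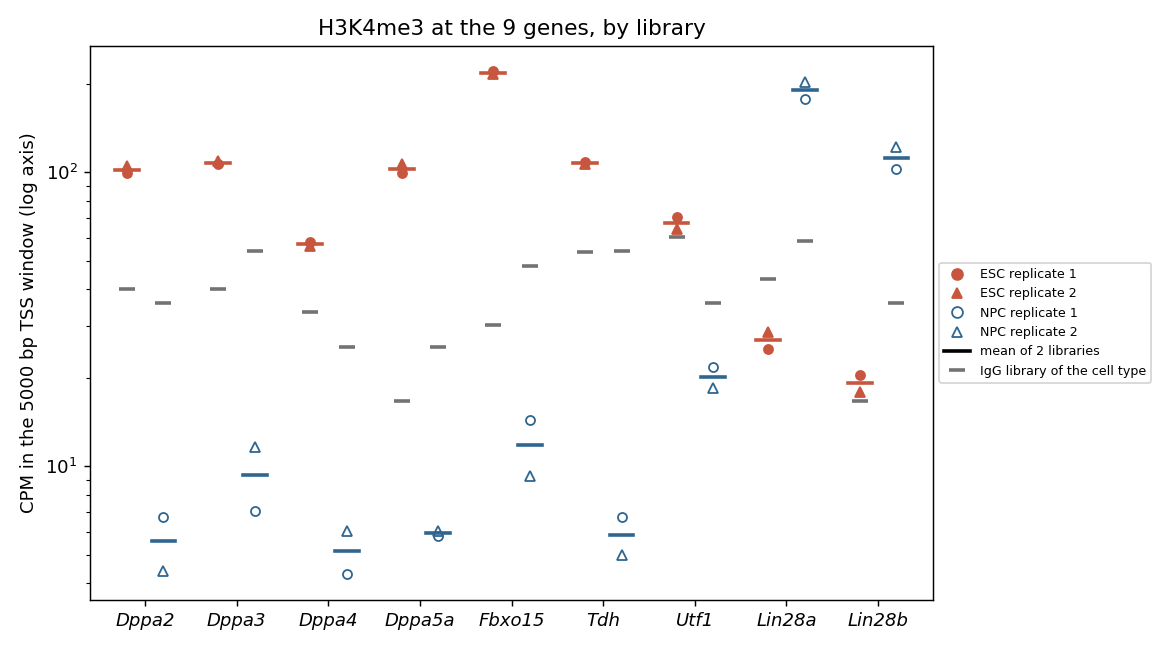
H3K4me3 at the 9 genes in CPM (log axis) for each library, with ESC filled and NPC open, circles for replicate 1 and triangles for replicate 2, a bar for the mean of 2 libraries and a grey dash for the IgG library of the cell type. The Dppa genes, Fbxo15, Tdh and Utf1 are lower in both NPC libraries, while Lin28a rises to 178 and 204 CPM and Lin28b to 103 and 122 CPM.

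H3K4me3 was set against IgG of the same cell type in a fit over all 22 libraries, in which a window was called above IgG at a log2 fold of at least 1 and an adjusted p below 0.05. In ESC 6 of the 9 genes were above IgG, against 36.0% of all windows. The log2 fold over IgG was 3.70 ± 0.45 for Fbxo15, 3.46 ± 0.48 for Dppa5a, 2.27 ± 0.40 for Dppa3, 2.19 ± 0.39 for Dppa2, 1.85 ± 0.38 for Tdh and 1.61 ± 0.46 for Dppa4. Neighbours in this order differed by less than the sum of their SEs, except Dppa5a and Dppa3. Utf1 (1.01 ± 0.57, adjusted p = 0.103), Lin28b (1.05 ± 0.62, adjusted p = 0.12) and Lin28a (0.15 ± 0.45) were not called in ESC. With library totals Dppa4 lost the call (adjusted p = 0.225), and against the IgG libraries of both cell types together Utf1 gained it (1.42 ± 0.43, adjusted p = 0.00206). In NPC only Lin28a (2.64 ± 0.35) and Lin28b (2.58 ± 0.34) of the 9 genes were above IgG, against 38.9% of all windows. H3K4me3 of the Dppa genes, Fbxo15 and Tdh was below the IgG level in NPC, at log2 folds between -2.31 and -1.13, while Utf1 was at 0.07 ± 0.55. Such levels were common, since the genes below IgG still lay above 34.2% (Tdh) to 40.9% (Dppa5a) of all windows.

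H3K27me3 rose at Dppa2, Dppa3, Utf1 and Tdh and fell at Lin28a and Lin28b. Of the 8 genes tested (Dppa4, with at most 22 counts in a library, did not pass the filter on low counts), 4 were called higher and 2 lower in NPC, against 22.9% higher and 23.5% lower of 21863 windows. Utf1 had 65.2 and 61.8 CPM in ESC and 274 and 401 CPM in NPC, a log2 change of 2.69 ± 0.86 (6.45-fold, adjusted p = 0.00642), and lay above 98.5% and 98.3% of windows in the NPC libraries. Tdh rose from 10.4 and 17 CPM to 63.2 and 68.8 CPM, a change of 2.56 ± 0.37 (5.88-fold, adjusted p = 9.15e-10). The ESC and NPC libraries did not overlap at either gene.

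Dppa3 had 19.7 and 24.7 CPM of H3K27me3 in ESC and 53.2 and 46.5 CPM in NPC, a log2 change of 1.39 ± 0.32 (adjusted p = 0.000148). The rise at Dppa2 (1.81 ± 0.64, 95% interval 0.56 to 3.06, adjusted p = 0.0132) rested on 2 and 5 counts in the ESC libraries, which are 2.07 and 7.72 CPM, against 13.3 and 13.4 CPM in NPC. Its NPC level was low, above 9.04% and 43.0% of windows. Dppa5a (6.21 and 17 CPM in ESC, 21.1 and 9.56 CPM in NPC) and Fbxo15 (11.4 and 23.2 CPM, then 34.4 and 8.28 CPM) had overlapping libraries and log2 changes of 0.60 ± 0.49 and 0.37 ± 0.41 that did not pass (adjusted p = 0.314 and 0.459). Dppa4 had 8.28 and 3.09 CPM in ESC and 24.4 and 5.73 CPM in NPC. At these 3 genes NPC replicate 1 was above NPC replicate 2, and at Fbxo15 both ESC libraries lay between them.

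Lin28a had 50.7 and 55.6 CPM of H3K27me3 in ESC and 27.7 and 19.11 CPM in NPC, a log2 change of -1.01 ± 0.30 (adjusted p = 0.00349). Lin28b fell from 35.2 and 49.4 CPM to 20.0 and 17.2 CPM, a change of -0.94 ± 0.31 (adjusted p = 0.00767). The ESC and NPC libraries overlapped at none of the 6 called genes. Non-overlap alone held for 28.8% of windows in the direction of a rise and for 37.3% in the direction of a fall.

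**Figure D2:**
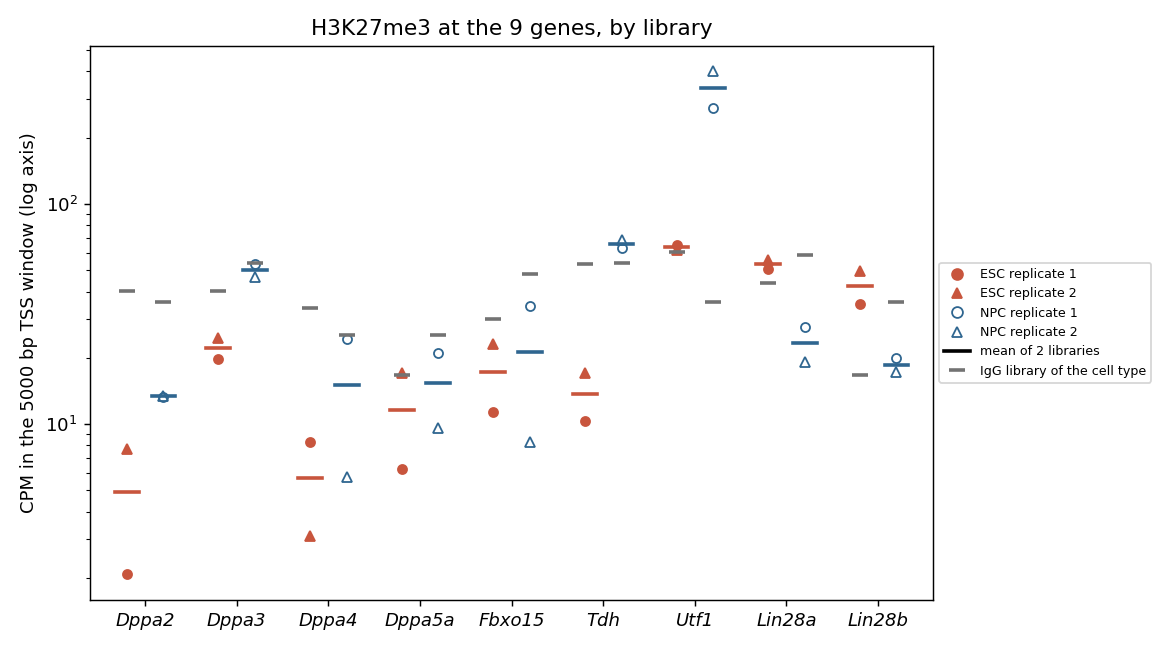
H3K27me3 at the 9 genes in CPM (log axis) for each library, with the symbols of the H3K4me3 plot: filled for ESC, open for NPC, bars for means of 2 libraries and grey dashes for IgG. Utf1 stands at 274 and 401 CPM in NPC, Tdh at 63.2 and 68.8 CPM, and the Lin28 genes lie below their ESC levels.

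Against IgG, H3K27me3 in NPC was called at Utf1 (log2 4.28 ± 0.60) and Tdh (1.29 ± 0.33) and at none of the other 7 genes, against 15.1% of all windows. Dppa3 (0.84 ± 0.33, adjusted p = 0.0835) missed the threshold, and Dppa2 was at -0.45 ± 0.42. In ESC Lin28b was called above IgG (1.90 ± 0.60, adjusted p = 0.00896), against 22.5% of windows, with IgG at 16.8 CPM from 5 counts. Lin28a (0.88 ± 0.46, adjusted p = 0.107) and Utf1 (0.68 ± 0.59) were not called. With library totals the calls of Lin28b in ESC (adjusted p = 0.103) and Tdh in NPC (adjusted p = 0.356) ended, and against both IgG libraries together Utf1 was called in ESC (1.09 ± 0.45, adjusted p = 0.0306).

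These H3K27me3 calls depended on the scaling and on single libraries. With scaling from background windows, under which the median change over all windows was -0.70 in place of 0.12, 1 gene stayed called higher (Tdh, 1.76 ± 0.46) and Dppa5a and Fbxo15 had changes of -0.22 and -0.46, both still above that median. All windows called then split into 1224 higher and 8958 lower, against 5010 and 5133, and with library totals into 1676 and 4714. Leaving out ESC replicate 1 left 0 genes called higher and 1 lower (Lin28b), leaving out ESC replicate 2 ended the calls of Utf1 and Lin28b, and leaving out NPC replicate 2 ended that of Dppa2. With the replicate number as a block, Dppa2 (adjusted p = 0.08665) and Utf1 (adjusted p = 0.137) were not called. DESeq2 called Utf1 and Tdh higher and neither Lin28 gene lower (adjusted p = 0.115 for Lin28a and 0.158 for Lin28b).

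Both marks were called as changed in opposite directions at 6 genes, with H3K27me3 calls that depended on scaling and single libraries. Lower H3K4me3 with higher H3K27me3 was called at Dppa2, Dppa3, Utf1 and Tdh. This combination was found at 12.1% of the 18442 windows tested for both marks. At Dppa2 H3K27me3 was below IgG in both cell types (log2 -2.57 in ESC and -0.45 in NPC). At Dppa3 it was called above IgG in neither (-0.27 in ESC and 0.84 in NPC). Gain of H3K4me3 with loss of H3K27me3 was called at Lin28a and Lin28b, a combination found at 5.06% of windows. None of the 9 genes carried both marks above IgG within 1 cell type, against 2.29% of windows in ESC and 4.05% in NPC. In CPM, Utf1 had both marks at like levels in ESC, with 70.7 and 64.3 CPM of H3K4me3 beside 65.2 and 61.8 CPM of H3K27me3. The IgG library of ESC stood at 60.3 CPM there. Over IgG of ESC, Utf1 was at 1.01 ± 0.57 for H3K4me3 and 0.68 ± 0.59 for H3K27me3, neither called. Lin28b was at 1.05 ± 0.62, not called, and 1.90 ± 0.60, called. Against the IgG libraries of both cell types together, both marks of Utf1 in ESC were called.

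**Figure D3:**
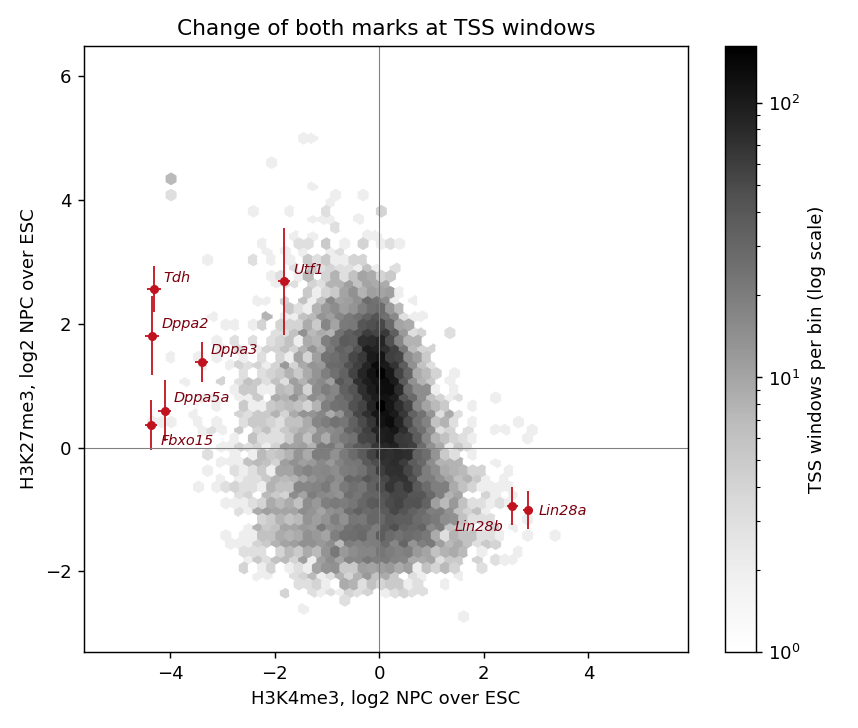
Log2 change from ESC to NPC of H3K4me3 (horizontal) and H3K27me3 (vertical) at the 18442 TSS windows tested for both, shaded by the number of windows per bin (log scale), with the genes in red and bars of 1 SE. Tdh, Dppa2, Dppa3 and Utf1 lie at the upper left, Dppa5a and Fbxo15 at the left near no change of H3K27me3, and Lin28a and Lin28b at the lower right; Dppa4 is left out because its H3K27me3 was not tested.

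The Polycomb proteins did not change detectably at these genes between ESC and NPC, and Utf1 was the gene with the most signal. For SUZ12, 0 of 8 genes tested were called (1 at an unadjusted p below 0.05), where 2.97% of windows were called higher and 13.1% lower. For MTF2, 0 of 9 were called (0 at an unadjusted p below 0.05), where 3.28% were higher and 8.89% lower, and for JARID2 0 of 9 (0 unadjusted), where 0.0792% were higher and 0.750% lower. The NPC JARID2 libraries differed by less than the sampling noise, and counted as 1 sample they also gave 0 of 9 genes. DESeq2 also called none of those among the 9 genes to which it gave an adjusted p for these 3 proteins.

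Utf1 had 117 and 107 CPM of SUZ12 in ESC and 88.0 and 105 CPM in NPC, a log2 change of -0.48 ± 0.23 (adjusted p = 0.147). It lay above 95.7% and 95.6% of windows in the ESC libraries and above 97.6% and 98.6% in the NPC libraries. MTF2 at Utf1 was 141 and 96.1 CPM in ESC and 72.8 and 151 CPM in NPC, a change of -0.36 ± 0.47 with overlapping libraries. JARID2 showed no such standing, with 65.4 and 45.2 CPM in ESC and 40.6 and 53.0 CPM in NPC. Over IgG, which was at 60.3 CPM in ESC and 35.9 CPM in NPC, Utf1 reached log2 folds for SUZ12 of 1.24 ± 0.58 in ESC (adjusted p = 0.231) and 1.5 ± 0.57 in NPC (adjusted p = 0.883), and for MTF2 of 1.43 ± 0.58 (adjusted p = 0.105) and 1.75 ± 0.57 (adjusted p = 0.575). None of these passed; in this fit 0 windows at all were called for SUZ12 and MTF2 in NPC or for JARID2 in either cell type, against 5.67% for SUZ12 and 9.10% for MTF2 in ESC. Against both IgG libraries together, Utf1 was called in ESC for SUZ12 (1.65 ± 0.44, adjusted p = 0.00565) and MTF2 (1.84 ± 0.44, adjusted p = 0.00132), and with library totals it was called in NPC for MTF2 (1.66 ± 0.44, adjusted p = 0.0306).

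The other 8 genes had at most 44.3 CPM of SUZ12 and 46.4 CPM of MTF2 in any library. Lin28a was the next highest in CPM, with 44.3 and 42.6 CPM of SUZ12 in ESC and 42.9 and 42.3 CPM in NPC, beside IgG at 43.6 and 58.4 CPM. Over IgG in ESC the order differed, with SUZ12 at 0.91 ± 0.67 for Lin28b, 0.86 ± 0.65 for Dppa5a and 0.35 ± 0.47 for Lin28a, none of them called. Dppa4, at the low end, had between 7 and 13 SUZ12 counts per library (11.7 and 14.8 CPM in ESC, 15.0 and 29.0 CPM in NPC). At that depth only large changes are detectable: the 95% interval of the SUZ12 change was -0.66 to 0.82 at Tdh and -1.01 to 0.52 at Lin28b. The largest change of JARID2 among the 9 genes was that of Dppa5a, 0.94 ± 0.53 (adjusted p = 0.605), from 8 and 4 counts in ESC to 13 and 11 in NPC.

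With scaling from background windows Utf1 alone was called lower for SUZ12 (log2 -0.71, adjusted p = 0.0148), while a minimum count of 30 gave it a change of 0.35 (adjusted p = 0.152). The split of all windows called turned with the scaling, from 630 higher and 2786 lower for SUZ12 to 2391 and 2031 under library totals or 167 and 3840 under factors from background windows, and from 684 and 1856 for MTF2 to 2107 and 1439 and to 111 and 3490.

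**Figure D4:**
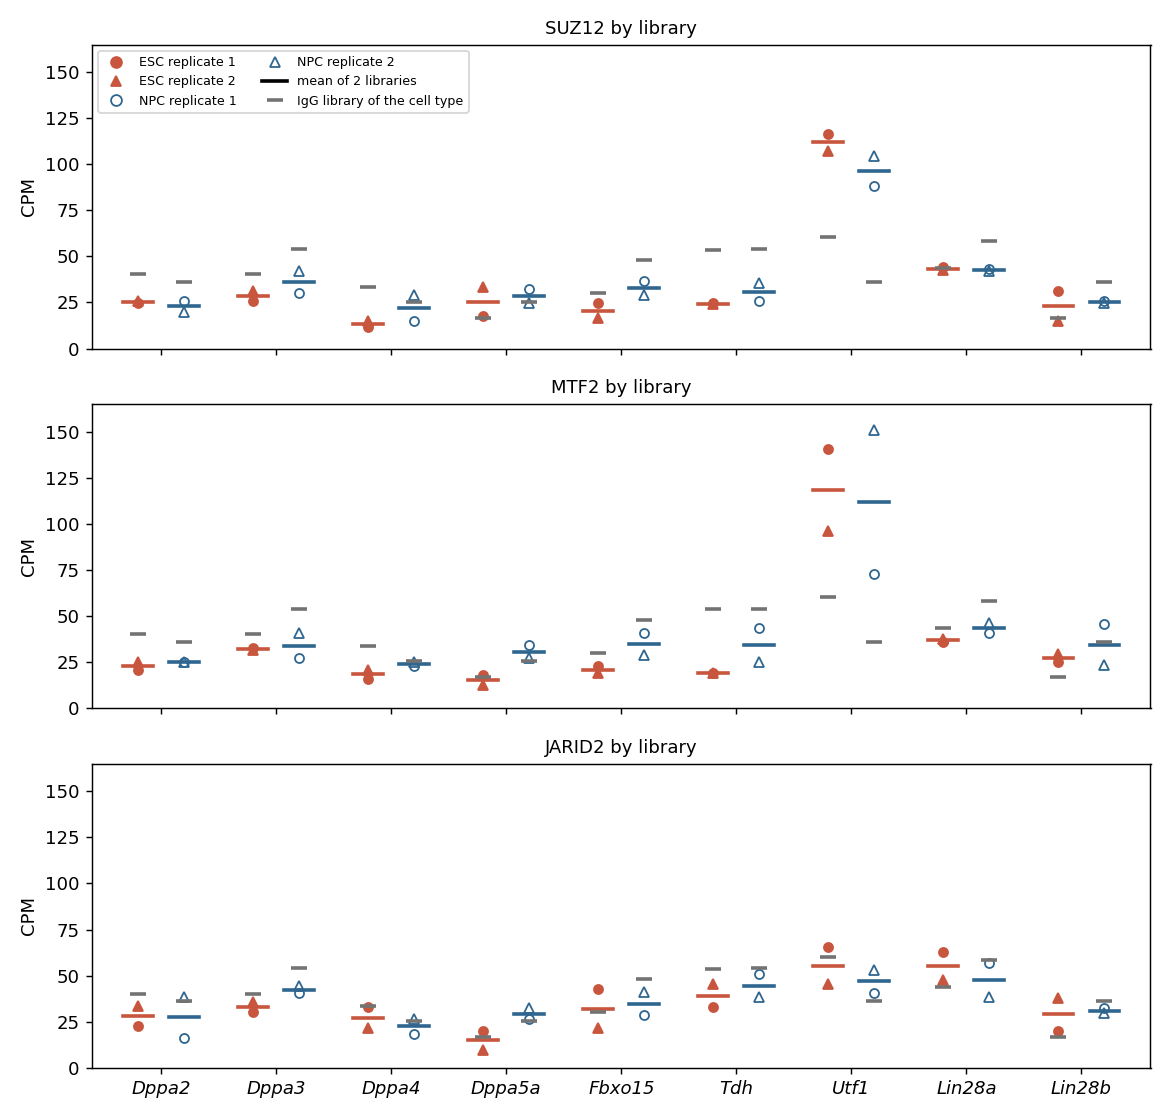
SUZ12, MTF2 and JARID2 at the 9 genes in CPM (linear axis from 0) for each library, filled for ESC and open for NPC, with bars for means of 2 libraries and grey dashes for IgG. Utf1 has the highest SUZ12 and MTF2 of the 9 genes in every library, each above its IgG dash, while the other genes have at most 44.3 CPM of SUZ12 and 46.4 CPM of MTF2.

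Whether the PRC2 subunit and its mark changed alike was tested as the H3K27me3 change minus the SUZ12 change over 8 libraries. H3K27me3 changed more upward than SUZ12 at Utf1 (difference of log2 changes 3.16 ± 0.84, adjusted p = 0.00223), Tdh (2.47 ± 0.53, adjusted p = 0.000131), Dppa2 (2.17 ± 0.72, adjusted p = 0.0141) and Dppa3 (1.27 ± 0.48, adjusted p = 0.0314). Of 23478 windows, 16.7% had a called difference in this direction and 14.2% in the other, and the median over all windows was 0.29. SUZ12 was not called above IgG at any of the 9 genes, and at Tdh (log2 -0.78 in ESC and -0.73 in NPC), Dppa2 (-0.33 and -0.56) and Dppa3 (-0.17 and -0.49) it lay below IgG in both cell types. At these 3 genes the test therefore sets the change of H3K27me3 against that of a SUZ12 signal at background, and does not show that bound PRC2 and its mark changed differently. At Utf1 SUZ12 lay higher, but it was not called above IgG of the same cell type either (adjusted p = 0.231 in ESC and 0.883 in NPC). A different change of bound PRC2 and its mark was therefore not established at Utf1. Dppa4 (0.72 ± 0.76), Dppa5a (0.58 ± 0.60), Fbxo15 (-0.01 ± 0.56), Lin28a (-0.74 ± 0.46) and Lin28b (-0.72 ± 0.50) were not called. Utf1 and Tdh were called under each alternative tried, with a largest adjusted p of 0.0483 and 0.0141, while with library totals Dppa2 (adjusted p = 0.214) and Dppa3 (adjusted p = 0.338) were not, and all windows split into 1949 and 3822 in place of 3915 and 3337. The call of Dppa2 was also lost without ESC replicate 1 or NPC replicate 2 of H3K27me3 (1.46 and 1.73), or without ESC replicate 1 or NPC replicate 2 of SUZ12 (adjusted p = 0.0506 and 0.0542), and that of Dppa3 in the lone absence of any library but 2 (NPC replicate 1 of H3K27me3 and NPC replicate 2 of SUZ12). The changes of MTF2 and JARID2 differed at 0 of the 9 genes (0 at an unadjusted p below 0.05, smallest adjusted p = 0.569), against 0.662% and 2.78% of windows, a split that library totals turned from 150 and 630 windows to 510 and 323.

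The nearest annotated TSS on each side of each gene was then read for H3K4me3. Signal between these windows was not analysed, and whether neighbours shared a regional change was not tested. Around Dppa3 both neighbours fell with it: Gdf3, a TGF-beta family ligand gene of ESC, 16352 bp away (log2 -3.94 ± 0.11), and Nanog, a core pluripotency factor, 81065 bp away (-4.46 ± 0.11). H3K27me3 rose at both, by 2.29 ± 0.50 at Gdf3 (from 6.19 to 25.9 CPM on average) and 2.44 ± 0.44 at Nanog (from 6.45 to 31.2 CPM). Next to Dppa5a, Ooep, a gene of the oocyte's maternal complex 10389 bp away, fell from 92.5 to 9.21 CPM of H3K4me3 (-3.42 ± 0.12), while Gsta2 on the other side, 21054 bp away, was at 2.92 and 2.08 CPM and was not called. Dppa2 and Dppa4 are each other's neighbour; beyond Dppa4, Nectin3 at 1786767 bp rose (1.03 ± 0.09).

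The other 5 genes changed without their neighbours. Fbxo15 lies 83611 bp from Cyb5a (63.3 CPM in ESC and 64.4 CPM in NPC, adjusted p = 0.975) and 16500 bp from Timm21, which rose by 0.62 ± 0.09. Beside Utf1, Kndc1 (0.03 ± 0.15) and Mir7686 (-0.23 ± 0.59) were not called, and beside Tdh, Fam167a (-0.33 ± 0.21) and Mtmr9 (0.15 ± 0.09) were not called. Dhdds, 17952 bp from Lin28a, had a change of 0.10 ± 0.09, and Aim1l, 49635 bp away, went from 7.56 to 3.85 CPM (log2 -1.11 ± 0.49, adjusted p = 0.0418). Bves (-0.05 ± 0.15) and Hace1 (0.08 ± 0.13) flank Lin28b and were not called. H3K27me3 fell at Mir7686 (-1.36 ± 0.36), next to Utf1, and at Fam167a (-1.32 ± 0.37), next to Tdh, the genes where it rose. It fell as well at Gm5485 (-2.39 ± 0.35, not tested for H3K4me3), next to Dppa2, another gene where it rose. Further falls were at Aim1l (-1.28 ± 0.33), next to Lin28a, and Gsta2 (-0.72 ± 0.30), next to Dppa5a, while Ooep, also next to Dppa5a, rose (2.04 ± 0.44). Of all windows tested, 23.5% were called lower in H3K27me3.

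**Figure D5:**
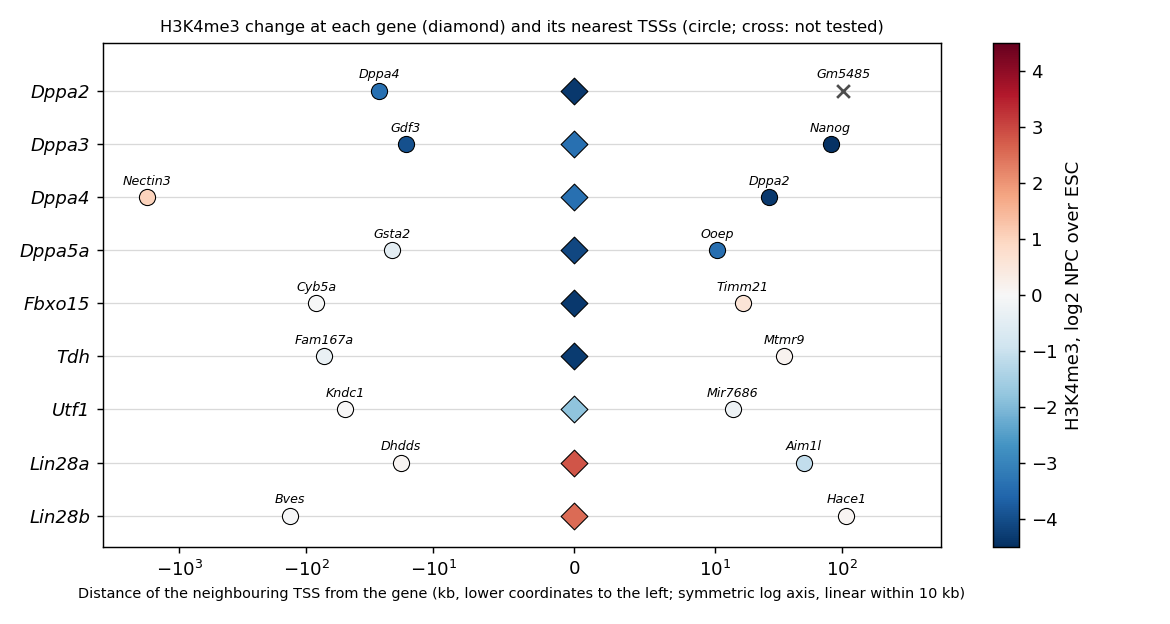
H3K4me3 change (colour, log2 NPC over ESC) at each of the 9 genes (diamond) and at the nearest TSS with another name on each side (circle; cross where not tested), by distance in kb on a symmetric log axis. Gdf3, Nanog, Ooep and the pair Dppa2 and Dppa4 share the fall, while the TSSs beside Fbxo15, Tdh, Utf1 and Lin28b are near 0 or of the other sign.

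Likeness between genes was taken as the Euclidean distance over the 10 group means (5 antibodies in ESC and NPC) of log2 CPM over IgG, which all share the same IgG libraries. Among the 9 genes the closest pairs were Dppa2 and Dppa4 (distance 1.29), Lin28a and Lin28b (1.72) and Dppa5a and Fbxo15 (1.79). Utf1 was at least 5.22 from every other of the 9 genes, and the farthest pair was Dppa2 and Utf1 (6.89). Outside the 9 genes, Ooep was the closest to Dppa2 (1.01), with Rnf125 and Gpa33 next, and it also stood among the 3 closest to Dppa4 (0.82, beside Gstp2 at 0.82 and Aurkc at 0.86) and Tdh (1.62, after Pde4a at 1.56 and before Mir142b at 1.63). Fbxo15 was closest to Lncenc1 (1.11), Platr4 (1.52) and Spp1 (1.58), and Dppa5a to BC052688 (1.06), Cd38 (1.58) and Platr14 (1.76). Lrrc34 (1.00), Tmc8 (1.40) and Halr1 (1.41) were closest to Dppa3. Utf1 had Ltbp4 (0.74), Smagp (1.00) and Nkx1-2 (1.02), Lin28a had Phf6 (1.23), Rai14 (1.26) and Ikzf2 (1.26), and Lin28b had Col11a1 (1.03), Eya1 (1.06) and Ugp2 (1.09). The median distance of all other windows was between 3.83 (for Lin28a) and 5.85 (for Utf1).

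Genes known to work with Lin28 had H3K4me3 changes of mixed direction. Of 22 genes of the LIN28 and let-7 pathway tested for H3K4me3, 10 were higher and 6 lower in NPC, with a median log2 change of 0.18, where all windows had 26.7% higher, 29.2% lower and a median of -0.02. Of 18 tested for H3K27me3, 9 were higher and 0 lower with a median of 0.99, where all windows had 22.9% higher, 23.5% lower and a median of 0.12. The H3K27me3 counts of this list and those below are from TMM scaling only. Under library totals or scaling from background windows, falls outnumbered rises over all windows, as given above. Arid3a, a let-7 target, rose most in H3K4me3 (0.77 ± 0.09), and the RNA-binding protein gene Igf2bp3 (0.62 ± 0.08) and the chromatin protein gene Hmga2 (0.61 ± 0.08), also let-7 targets, rose by less than 1 on the log2 scale. Hmga2 lost SUZ12, from 400 and 381 CPM to 81.6 and 105 CPM (-2.32 ± 0.23, adjusted p = 3.12e-20); SUZ12 at Lin28a (log2 0.35 ± 0.47 over IgG in ESC) and Lin28b (0.91 ± 0.67) was not above IgG in ESC, so no like loss could be measured there. Among further genes of the pathway, Dicer1 (0.28 ± 0.09) and Dis3l2 (0.31 ± 0.10) rose slightly in H3K4me3. Drosha (-0.22 ± 0.08), whose window overlaps another, and Ago2 (-0.48 ± 0.08) fell slightly.

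The mature let-7 sequences are shown for the 4 members whose host windows bear on this, with the seed that pairs with targets (bases 2 to 8) in capitals, as listed by RefSeq; all 9 family members in the table share this seed.
mmu-let-7g-5p: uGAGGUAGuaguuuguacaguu
mmu-let-7i-5p: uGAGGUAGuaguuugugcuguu
mmu-let-7e-5p: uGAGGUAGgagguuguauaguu
mmu-let-7d-5p: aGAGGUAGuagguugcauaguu
At the TSS of Mirlet7i, H3K4me3 rose from 74.0 and 79.3 CPM to 112 and 119 CPM (log2 0.59 ± 0.09). Mirlet7g, near the bottom of the scale, fell from 7.59 and 8.01 CPM to 4.6 and 3.09 CPM (-1.11 ± 0.47, adjusted p = 0.0325), and Mirlet7e fell from 75.3 and 69.9 CPM to 45.3 and 50.1 CPM (-0.61 ± 0.09) in a window that overlaps another. Mirlet7d, in an overlapping window as well, had the largest rise of H3K27me3 of the list (2.56 ± 0.64), from 2 and 3 counts per library in ESC. These are windows at the annotated microRNA starts, which need not be the start of the primary transcript.

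The wider groups to which the genes belong were read beside them, against the same shares and medians of all windows (H3K4me3 26.7% higher, 29.2% lower, median -0.02; H3K27me3 22.9% higher, 23.5% lower, median 0.12). Of 14 genes listed as core and naive pluripotency regulators, 12 fell and 1 rose (Tcf3, 0.21 ± 0.08) in H3K4me3. The symbol Tcf3 belongs to an E-protein gene, not to the pluripotency factor once called by that name, and is still counted here. The median was -1.77, and H3K27me3 rose at 13 of 14, most at Tbx3 (4.95 ± 1.18). All 15 other ESC-enriched genes fell in H3K4me3, with a median of -2.32 and the deepest fall at Tdgf1 (-4.21 ± 0.11), and H3K27me3 rose at 10 of them, most at Fgf4 (5.55 ± 1.14), and fell at 1, Dnmt3l (-1.34 ± 0.31). The fall of Fbxo15 was of the size of those of Nanog (-4.46 ± 0.11), Pou5f1 (-4.26 ± 0.11) and Tdgf1, but at Pou5f1 H3K27me3 rose by 4.16 ± 0.46 and at Tdgf1 by 4.02 ± 0.70, beside 0.37 ± 0.41 at Fbxo15.

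Enzymes of threonine, glycine and one-carbon metabolism, which share the pathway of Tdh, fell at 8 and rose at 4 of 15 TSSs in H3K4me3, with a median of -0.20; the share that rose was that of all windows. Amt, of the glycine cleavage system, fell most (-1.53 ± 0.09), followed by Shmt1 (-1.10 ± 0.09), and Mthfd2l rose most (1.21 ± 0.12); Gcat, which acts after Tdh in the same route, rose by 0.63 ± 0.09 in a window that overlaps another. H3K27me3 rose at 6 of 14, most at the serine synthesis gene Psph (1.74 ± 0.56, overlapping window), and fell at 1, Mthfd2l (-1.08 ± 0.36). Of SCF ubiquitin ligase genes, the family of Fbxo15, 3 of 14 fell and 5 rose in H3K4me3, with a median of 0.03, counts near those shares of all windows. Fbxo6 (-1.40 ± 0.10, overlapping window) and Fbxw7 (1.40 ± 0.16) were the extremes, and the core subunits Skp1a (-0.08 ± 0.08), Cul1 (-0.09 ± 0.08) and Rbx1 (0.07 ± 0.09) were not called. H3K27me3 was higher at 4 of 12 and lower at 0, with a median of 1.01 and the largest rise at Fbxo6 (1.80 ± 0.40). Of cleavage-stage and oocyte genes, only 8 of 20 passed the filter for H3K4me3, of which 4 fell (Ooep, Khdc3, Tle6 and Zp3) and 1 rose (Gdf9, overlapping window). H3K27me3 rose at 4 of 11 and fell at 3, with a median of 0.17. The largest rise was at Tle6, a partner of Ooep in the maternal complex (3.36 ± 0.44), and the deepest fall at Tcstv1, a gene of cleavage-stage embryos (-1.32 ± 0.31). Germ cell markers, with which Dppa3 is shared, had low H3K4me3 sums of 34.3 and 32.0 CPM in ESC and 20.5 and 15.0 CPM in NPC, and Dazl alone of the 4 fell (-1.37 ± 0.20).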

How the data were processed

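All 22 CUT&RUN libraries entered (2 for each of 5 antibodies and 1 for IgG, in ESC and in NPC). The deposited table holds raw counts in 5000 bp windows around TSSs. Per the submitters' processing notes, mm10, Bowtie2 2.3.4.3 and Picard 2.19 were used. How reads were filtered, deduplicated and counted is not given in the sources used here. No spike-in count was used (0 of the columns), so a change common to all windows was not measured.

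Changes were fitted per antibody over all windows with edgeR 4.0.16 in R 4.3.3 (quasi-likelihood test, TMM, filterByExpr at a minimum count of 10, Benjamini-Hochberg adjustment below 0.05), differences between antibodies as interactions, and folds over IgG in 1 fit of 22 libraries, in which the single IgG library is assumed to vary like the others. Log2 CPM over IgG used a prior count of 2. ± is the SE of the fit. All adjusted p-values are edgeR's unless DESeq2 1.42.0 is named. The scripts were tested on simulated data.

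The 9 genes and all lists were chosen with earlier results of these data known. The text names the 9 genes, the nearest TSSs, the 3 genes of closest pattern and, per list, the called gene with the largest change of H3K4me3 and H3K27me3 in each direction; other genes of the lists were named after their values were seen. Alternatives were library totals, scaling from background windows, no filter, a minimum count of 30, a replicate block, non-overlapping windows, 1 fit over all libraries, DESeq2, a cut-off of 2 for the log2 fold over IgG, both IgG libraries together and each library left out; a crossed block was added after seeing the data. The pair of NPC JARID2 libraries agreed within sampling noise (chi-square over its degrees of freedom: 0.998); it was kept apart as the labels list it, with the sum as an alternative.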

Additional observations from a re-analysis of the deposited data

Results flagged for a closer look

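At 4 of the 9 genes the change from ESC to NPC differed between H3K27me3 and SUZ12 in a test of the difference itself (edgeR interaction term over 8 libraries). Of all 23478 windows, 16.7% were called with H3K27me3 changing more upward and 14.2% with SUZ12 changing more upward. The H3K27me3 change exceeded the SUZ12 change by 3.16 ± 0.84 on the log2 scale at Utf1, 2.47 ± 0.53 at Tdh, 2.17 ± 0.72 at Dppa2 and 1.27 ± 0.48 at Dppa3. At Utf1 both NPC libraries of H3K27me3 were above both ESC libraries, as at 28.8% of windows. SUZ12 at Utf1, with 117 and 107 CPM in ESC and 88.0 and 105 CPM in NPC, was not called as changed (adjusted p = 0.147). Its log2 change ran from -0.71 to 0.35 across the alternatives tried. It was not called above IgG in ESC (adjusted p = 0.231) or in NPC (adjusted p = 0.883). Against both IgG libraries together it was called in ESC (adjusted p = 0.00565) but not in NPC (adjusted p = 0.619). At Tdh, Dppa2 and Dppa3 SUZ12 was below IgG in both cell types, so that its change there is one of background signal. At Tdh, SUZ12 had 24.5 and 24.1 CPM in ESC and 25.8 and 35.7 CPM in NPC, beside an IgG level of 53.6 and 53.9 CPM.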

How the results depend on the processing

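The H3K4me3 changes of the 9 genes kept direction and call in all 108 gene and setting pairs tried. For H3K27me3, 73 of 98 pairs did so, 20 lost the call and 5 turned sign. For the difference between H3K27me3 and SUZ12 the counts were 86 of 103, with 12 lost and 5 turned. Among genes without a call, the sign turned in 15 of 82 pairs for SUZ12, 10 of 99 for JARID2 and 13 of 101 for MTF2, and 1 SUZ12 call was gained. Genes without an adjusted p from DESeq2 are left out of these counts. Unless stated, the cause of a shift was not tested. Low counts in the Polycomb libraries, 2 libraries per group, 1 IgG library per cell type and no spike-in limit all of this.

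With factors from background windows, 3612 windows were called for H3K4me3 in place of 11064. H3K27me3 then had 1 of the 9 genes higher, with Dppa5a at -0.22 and Fbxo15 at -0.46, and SUZ12 had 1 lower, with Tdh at -0.15. In 1 fit over all libraries, H3K4me3 gave 6764 windows, SUZ12 1617 in place of 3416, and JARID2 0 in place of 178. With library totals, H3K27me3 gave 6390 windows in place of 10143, with 1 gene lower in place of 2. Lin28b then had a SUZ12 change of 0.012, and 2 genes in place of 4 differed between H3K27me3 and SUZ12. Over IgG, library totals gave 4387 (ESC) and 4088 (NPC) windows for H3K4me3 in place of 8573 and 9278, and 2903 and 2131 for H3K27me3 in place of 5358 and 3602, with 0 and 1 of the 9 genes. They gave 177 for SUZ12 in NPC, 32 for JARID2 in ESC, 1435 for MTF2 in ESC and 204 for MTF2 in NPC, with 1 of the 9 genes.

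At a minimum count of 30, which tests fewer windows, H3K27me3 gave 4530 windows and 0 genes lower, SUZ12 1616 windows with Utf1 at 0.35, MTF2 983 in place of 2540 with Utf1 at 0.53, and the JARID2 and MTF2 comparison 382 in place of 780. Windows that overlap no other gave 103 for JARID2. DESeq2 gave 3589 windows for H3K27me3, with 2 genes higher and 0 lower, 1744 for SUZ12, 91 for JARID2 and 1078 for MTF2. At a log2 fold of at least 2 over IgG, H3K4me3 had 3939 (ESC) and 3623 (NPC) windows and H3K27me3 2294 and 2140, with 0 and 1 of the 9 genes, while SUZ12 had 860 in place of 1352 and MTF2 1155 in place of 2169, both in ESC. Both IgG libraries together gave 2 genes for H3K27me3 in ESC, 2415 windows and 1 gene for SUZ12 in ESC, 35 windows for SUZ12 in NPC, 3281 windows and 1 gene for MTF2 in ESC and 90 windows for MTF2 in NPC.

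Same-numbered libraries did not deviate together (correlations between -0.205 and 0.013). Whether they shared a culture or batch cannot be told from this. The SUZ12 and JARID2 libraries differed by little more than sampling noise, which leaves little to correlate. With the replicate number as a block, 2 genes were higher for H3K27me3, MTF2 gave 507 windows, and the JARID2 and MTF2 comparison gave 438. A crossed block, chosen after seeing the data, gave 10982 windows for H3K27me3 and 4086 for MTF2.

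With each library left out in turn, H3K27me3 gave 3573 (without ESC replicate 1) to 10378 windows, with 0 to 4 genes higher, 1 to 2 lower, Dppa5a from -0.056 to 1.23 and Fbxo15 from -0.46 to 0.82. SUZ12 gave 2119 to 3003 windows, with Tdh from -0.18 to 0.28 and Lin28b from -0.64 to 0.51. JARID2 gave 67 to 139 windows, and MTF2 98 (without NPC replicate 1; 217 without ESC replicate 1) to 2626, with Utf1 from -1.08 to 0.12. The H3K27me3 and SUZ12 comparison gave 3332 (without ESC replicate 1 of H3K27me3) to 8367 windows in place of 7252, with 2 to 4 genes higher, Dppa4 from -0.072 to 1.78 and Fbxo15 from -0.77 to 0.50. The JARID2 and MTF2 comparison gave 25 (without NPC replicate 1 of JARID2) to 1875 windows (without ESC replicate 2 of MTF2).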
